A study of Mus musculus with 24 samples.

Results

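The 8 genes described here encode enzymes of cholesterol synthesis, namely Hmgcs1, Idi1, Fdps, Fdft1, Sqle, Lss, Cyp51 and Dhcr7. They were chosen by name, as all probe sets whose only gene symbol on the platform is one of the 8, and the probe sets of a gene were combined into 1 value per gene. They are 8 of 20893 genes measured, and 8 of 10983 genes bright enough to be tested. All 8 passed that filter, which asked for at least 3 of the 24 arrays above the median of the whole table, 7.61 on the log2 scale.

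RNA of mouse cerebellum and cerebellar tumours was measured on 24 single-colour Affymetrix arrays, 1 array per sample, and values are deposited as log2 intensities. Tumours came from 8 hGFAP:GnasCKO mice and 8 Oligo1:GnasCKO mice, in which Gnas is the target of a conditional knockout by Cre drivers named hGFAP and Oligo1. They are called hGFAP and Oligo1 tumours here. All tumours were biological replicates of mixed C57BL/6 x 129 strain, dissected at endpoint, with no age given. Gnas encodes the stimulatory G protein subunit Gsα, which the series title names as suppressing tumours in Sonic Hedgehog medulloblastoma. Normal wild-type cerebellum was represented by 5 adult and 3 developing samples. Adult samples 1 and 2 were of postnatal day 60 and mixed strain, sample 3 of postnatal day 95 and sample 4 of postnatal day 122 were C57BL/6, and sample 5 was recorded only as adult and of mixed strain. Developing samples 1, 2 and 3 were C57BL/6 cerebella of embryonic day 15, embryonic day 18 and postnatal day 0, with 1 array per age. No developing sample was of mixed strain and no tumour was C57BL/6, so that strain is bridged only by the adult group. The labels do not say which cells the Cre drivers act in, which part of Gnas is deleted, or whether normal samples were single animals.

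Cholesterol is made from acetyl-CoA in a long series of steps. The early, mevalonate part of the pathway ends in isoprenoid units that are joined to farnesyl pyrophosphate, the branch point towards cholesterol, dolichol, ubiquinone and protein prenylation. The later, sterol part turns farnesyl pyrophosphate into squalene, closes squalene to lanosterol and trims lanosterol to cholesterol. Transcription of the pathway's genes is raised together by SREBP-2, the product of Srebf2, when sterols in the endoplasmic reticulum run low. The brain makes its own cholesterol because lipoproteins of the blood do not cross the blood-brain barrier, and neurons and glia make most of it while the brain grows and myelinates. Cholesterol and its derivatives also act on Smoothened, the receptor component that carries the Sonic Hedgehog signal.

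RefSeq promoter windows of GRCm38.p6, from 250 bases before to 50 bases after a gene's start, were at hand for 5 of the 8 genes, in 7 windows. Those of the 4 genes with a single window are printed 5′ to 3′, because SREBP-2 acts on this pathway through sterol regulatory elements close to the start, commonly beside CCAAT boxes. They lie at chr13:119690101-119690400 and chr13:8885356-8885655 and chr10:76531355-76531654 on the plus strand and at chr5:4104648-4104947 on the minus strand. Capitals mark matches on either strand to the sterol regulatory element, written TCACNCCA, and to the CCAAT box, written CCAAT.
Hmgcs1: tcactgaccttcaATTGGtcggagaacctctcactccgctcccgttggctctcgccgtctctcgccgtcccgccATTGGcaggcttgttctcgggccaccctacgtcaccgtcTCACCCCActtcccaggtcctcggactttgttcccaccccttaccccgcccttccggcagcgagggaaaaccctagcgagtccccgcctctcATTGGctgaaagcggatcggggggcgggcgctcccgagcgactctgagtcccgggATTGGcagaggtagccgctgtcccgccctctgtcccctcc
Idi1: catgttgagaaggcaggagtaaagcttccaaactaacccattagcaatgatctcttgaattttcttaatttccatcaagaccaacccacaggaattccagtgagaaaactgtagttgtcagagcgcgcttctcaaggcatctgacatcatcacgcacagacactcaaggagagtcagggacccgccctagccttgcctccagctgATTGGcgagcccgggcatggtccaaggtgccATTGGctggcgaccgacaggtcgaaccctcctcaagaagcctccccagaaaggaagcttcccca
Lss: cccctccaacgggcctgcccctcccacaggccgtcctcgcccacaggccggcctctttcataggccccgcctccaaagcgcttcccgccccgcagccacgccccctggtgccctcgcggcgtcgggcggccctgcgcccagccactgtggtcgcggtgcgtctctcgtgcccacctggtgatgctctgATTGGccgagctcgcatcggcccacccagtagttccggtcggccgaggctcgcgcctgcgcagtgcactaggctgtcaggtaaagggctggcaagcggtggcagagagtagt
Cyp51: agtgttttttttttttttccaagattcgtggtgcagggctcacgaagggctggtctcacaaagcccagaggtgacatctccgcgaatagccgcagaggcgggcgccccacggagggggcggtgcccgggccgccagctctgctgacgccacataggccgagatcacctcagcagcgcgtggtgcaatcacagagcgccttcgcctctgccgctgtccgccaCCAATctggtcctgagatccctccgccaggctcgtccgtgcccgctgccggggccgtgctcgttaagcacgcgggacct
The sterol regulatory element had a match in 1 of the 7 windows, that of Hmgcs1, from base 114 to base 121 of the window, against 4.36% of all 32851 RefSeq windows of 300 bases. CCAAT boxes were found in 5 of the 7 windows against 37.4% of all windows, with 4 matches in Hmgcs1, 2 in Idi1, 1 in Lss, 1 in Cyp51 and 2 in 1 of the 3 windows of Dhcr7. GC boxes, GGGCGG on either strand, were found in 6 of the 7 windows against 35.7%. None of the 3 windows of Dhcr7, which start at different places of the gene, held the sterol element. A match describes letters, and its absence says only that these letters are not in the window.

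The arrays were compared before the enzymes were. Between 7903 and 9362 genes lay above the table's median per array. hGFAP tumour 5 had the fewest and stood apart from the other hGFAP tumours in its markers: its mean log2 level of 7 proliferation markers was 7.04 against a median of 10.91 in hGFAP tumours, and its mean of 9 mature granule neuron markers was 11.16, just under the adult range of 11.27 to 11.57. Oligo1 tumour 6 correlated with its closest other array at 0.905, the lowest such value of the 24 arrays. The targeted gene, Gnas, was at 9.69 to 9.87 in adult and 9.87 to 9.98 in developing cerebellum, at 7.38 to 9.33 in hGFAP tumours and at 6.96 to 8.41 in Oligo1 tumours. It was lower than in adult cerebellum in hGFAP tumours (difference -1.64, SE 0.29, limma adjusted p = 0.000112) and in Oligo1 tumours (-1.97, SE 0.29, adjusted p = 4.59e-06), and the highest tumour value, 9.33, was that of hGFAP tumour 5. Results for the enzymes that rest on hGFAP tumour 5 are given with and without it. In bulk tissue, fewer cells of a type and less RNA per cell cannot be told apart.

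Across all 8 enzymes, developing cerebellum stood highest, and adult cerebellum and both tumour groups lay close together below it. The mean log2 level of the 8 enzymes was 9.73 to 9.97 in the 3 developing arrays, 8.52 to 8.98 in the 5 adult arrays, 8.18 to 9.21 in hGFAP tumours (median 8.92) and 8.70 to 9.19 in Oligo1 tumours (median 9.02). The developing arrays thus did not overlap with any other group, while the other 3 groups overlapped with each other. The lowest value, 8.18, was that of hGFAP tumour 5.

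**Figure D1:**
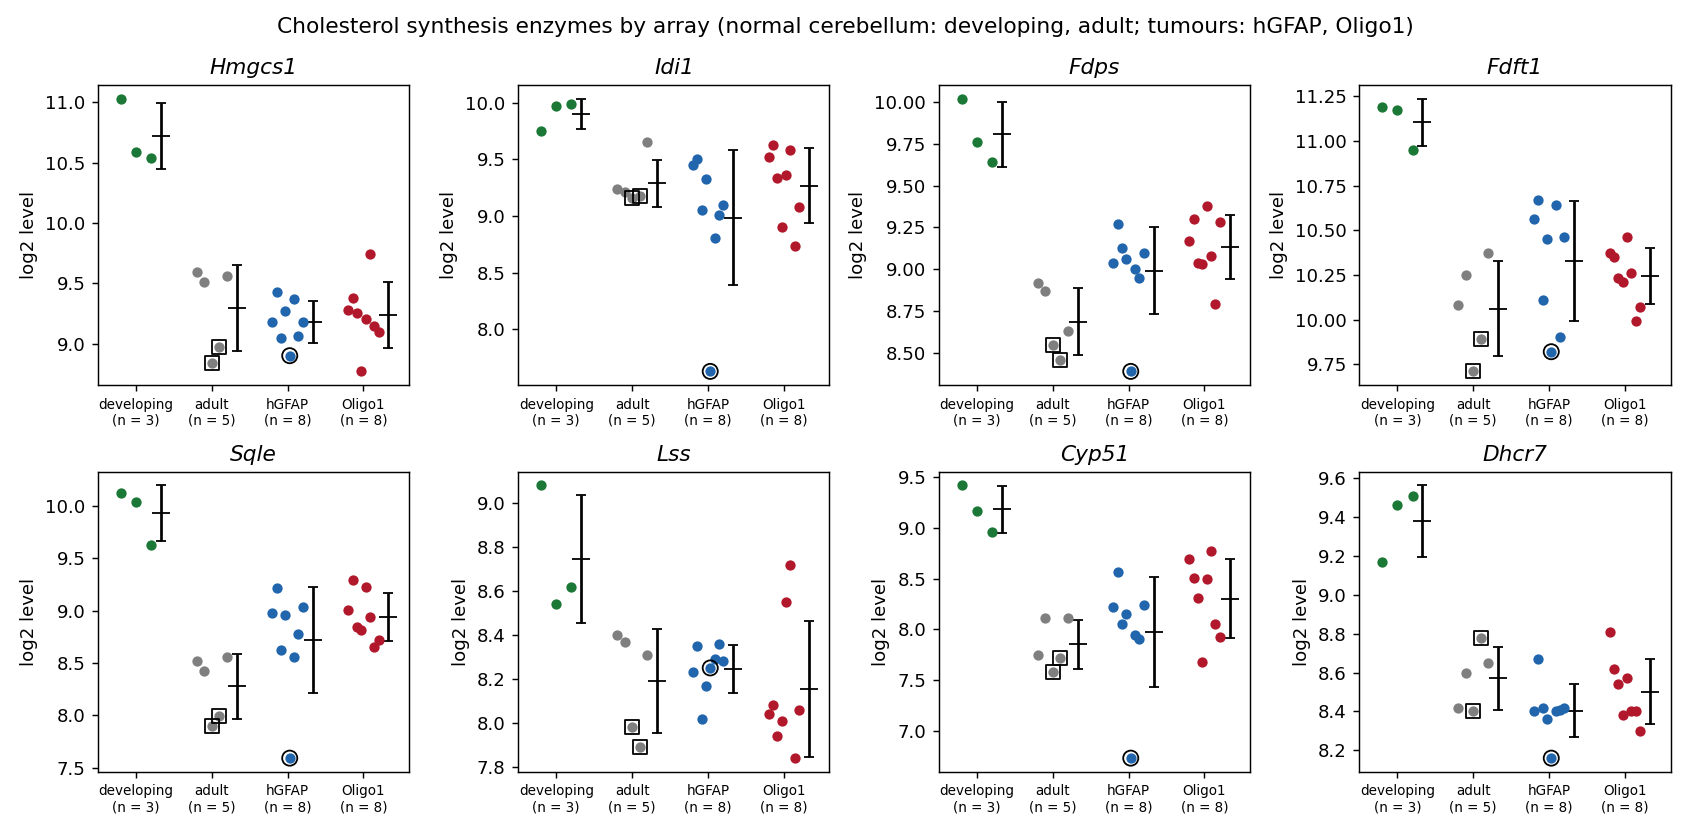
Log2 level of each of the 8 enzymes (y axis, scale set for each gene and not starting at 0) in each array, by group, with the group mean ± SD beside the points. Circles mark hGFAP tumour 5 and squares the C57BL/6 adult arrays; the developing arrays are the highest group in every panel, with Oligo1 tumours 5 and 6, at 8.55 and 8.72, reaching into their range for Lss.

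Hmgcs1 encodes the cytosolic HMG-CoA synthase, which condenses acetyl-CoA with acetoacetyl-CoA at the entry to the mevalonate pathway. Its log2 level was 11.03 at embryonic day 15, 10.59 at embryonic day 18 and 10.54 at postnatal day 0. In the adult arrays it was 9.59 and 9.51 at postnatal day 60, 8.84 at day 95, 8.97 at day 122 and 9.56 in the array recorded only as adult. The 2 C57BL/6 adult arrays, of days 95 and 122, were thus the lowest of the adult group, and no adult array came near the developing ones. Hmgcs1 was at 8.90 to 9.43 in hGFAP tumours (median 9.18) and at 8.77 to 9.74 in Oligo1 tumours (median 9.22), and both ranges overlapped with the adult one and lay wholly below the developing one. It was 2.91-fold lower in hGFAP tumours than in developing cerebellum (log2 difference -1.54, SE 0.18, limma adjusted p = 8.54e-07) and 2.80-fold lower in Oligo1 tumours (-1.49, SE 0.18, adjusted p = 9.22e-07), the largest fall of the 8 enzymes in both tumour groups. Against adult cerebellum the differences were -0.11 (95% interval -0.42 to 0.20) and -0.06 (-0.37 to 0.25), and neither passed the test. The order of the group means was developing 10.72, adult 9.29, Oligo1 tumours 9.23 and hGFAP tumours 9.18, and only the first step exceeded the spread between arrays.

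Idi1 encodes isopentenyl-diphosphate isomerase, which interconverts the isoprenoid building blocks. It read 9.75, 9.97 and 9.99 in developing samples 1 to 3, and 9.24, 9.21, 9.16, 9.18 and 9.65 in adult samples 1 to 5. The array recorded only as adult therefore stood away from the other adult arrays, close under the lowest developing one. hGFAP tumours ranged from 7.63 to 9.50 (median 9.08), with hGFAP tumour 5 at 7.63 and the next lowest tumour at 8.81, and Oligo1 tumours ranged from 8.74 to 9.63 (median 9.35). Idi1 was lower than in developing cerebellum in hGFAP tumours (-0.92, SE 0.27, 1.89-fold, adjusted p = 0.0131), and still so without hGFAP tumour 5 (-0.72, adjusted p = 0.00288). That call was lost without developing sample 2 (-0.89, adjusted p = 0.0567) or without sample 3 (-0.87, adjusted p = 0.0532). Oligo1 tumours did not overlap with the developing arrays either, but the difference of -0.63 (SE 0.27, adjusted p = 0.0571) missed the threshold, and it passed without Oligo1 tumour 2 (-0.69, adjusted p = 0.0479) or Oligo1 tumour 6 (-0.68, adjusted p = 0.0479). Idi1 was the 1 enzyme for which developing and adult cerebellum were not called different (0.62, SE 0.29, adjusted p = 0.089), although these groups did not overlap.

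Fdps encodes farnesyl diphosphate synthase, whose product stands at the branch between sterols and other isoprenoids. Its level in developing samples 1 to 3 was 10.02, 9.76 and 9.64, and in adult samples 1 to 5 it was 8.92, 8.87, 8.55, 8.46 and 8.63. hGFAP tumours lay at 8.39 to 9.27 (median 9.05) and Oligo1 tumours at 8.79 to 9.38 (median 9.13), so that most tumours sat between the adult and the developing arrays. The group means ran from 9.81 in developing cerebellum over 9.13 in Oligo1 tumours and 8.99 in hGFAP tumours to 8.69 in adult cerebellum, and the 2 tumour groups did not differ beyond their spread (-0.14, adjusted p = 0.337). Fdps was 1.76-fold lower than in developing cerebellum in hGFAP tumours (-0.82, SE 0.15, adjusted p = 0.000265) and 1.60-fold lower in Oligo1 tumours (-0.68, SE 0.15, adjusted p = 0.00106). With the plain mean of its 7 probe sets, 3 of them too dim for the probe-set test, in place of the median polish, the fall in hGFAP tumours was -0.32 and was not called (adjusted p = 0.062). Fdps was also higher in tumours than in adult cerebellum, by 0.30 in hGFAP tumours (SE 0.13, adjusted p = 0.0475) and 0.45 in Oligo1 tumours (SE 0.13, adjusted p = 0.00354). Both tumour groups overlapped with the adult arrays. The first of these calls was lost when any 1 array of the groups compared was left out other than adult sample 1, adult sample 2 or hGFAP tumour 5, with differences from 0.25 to 0.31. Without hGFAP tumour 5, the lowest hGFAP tumour at 8.39, the difference in hGFAP tumours was 0.39 (adjusted p = 0.00258). Against the mixed-strain adult arrays alone neither call was kept (0.18, adjusted p = 0.335, and 0.32, adjusted p = 0.0646).

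Fdft1 encodes squalene synthase, the enzyme that commits farnesyl pyrophosphate to sterols. It was measured at 11.19, 11.17 and 10.95 in developing samples 1 to 3 and at 10.08, 10.25, 9.71, 9.89 and 10.37 in adult samples 1 to 5. hGFAP tumours ranged from 9.82 to 10.67 (median 10.46) and Oligo1 tumours from 9.99 to 10.46 (median 10.25). No tumour reached the lowest developing array, and both tumour groups overlapped with the adult one. Fdft1 was 1.71-fold lower than in developing cerebellum in hGFAP tumours (-0.78, SE 0.17, adjusted p = 0.0014) and 1.82-fold lower in Oligo1 tumours (-0.86, SE 0.17, adjusted p = 0.000346). Against adult cerebellum the differences were 0.27 (adjusted p = 0.121) and 0.18 (adjusted p = 0.265). Without hGFAP tumour 5, the lowest hGFAP array, the first became 0.34 and was called (adjusted p = 0.0299). Against the mixed-strain adult arrays alone it was 0.09 (adjusted p = 0.667), and in Oligo1 tumours 0.01 (adjusted p = 0.97).

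Sqle encodes squalene epoxidase, which adds the first oxygen to squalene and is a rate-limiting step of the sterol part of the pathway. Its level was 10.13 at embryonic day 15, 10.04 at embryonic day 18 and 9.63 at postnatal day 0, against 8.52, 8.42, 7.90, 7.99 and 8.56 in adult samples 1 to 5. Oligo1 tumours, at 8.65 to 9.29 (median 8.89), filled the gap between these groups and overlapped with neither. hGFAP tumours ranged from 7.59 in hGFAP tumour 5, with 8.56 in the next lowest, to 9.22 (median 8.87). Sqle was 2.32-fold lower than in developing cerebellum in hGFAP tumours (-1.22, SE 0.24, adjusted p = 0.000534) and 2.00-fold lower in Oligo1 tumours (-1.0, SE 0.24, adjusted p = 0.00196). It showed the largest difference between the normal stages of the 8 enzymes, 3.15-fold higher in developing than in adult cerebellum (1.66, SE 0.26, adjusted p = 2.51e-05). In Oligo1 tumours it was 1.58-fold higher than in adult cerebellum (0.66, SE 0.20, adjusted p = 0.0064). In hGFAP tumours the difference of 0.44 was not called (adjusted p = 0.0715), and it was 0.60 and called without hGFAP tumour 5 (adjusted p = 0.00125). With mixed-strain adult arrays alone, the differences from adult cerebellum were 0.43 in Oligo1 tumours (adjusted p = 0.113) and 0.22 in hGFAP tumours (adjusted p = 0.474), and neither was called.

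Lss encodes lanosterol synthase, which closes oxidised squalene to the first sterol, lanosterol. It varied least between the groups. Developing samples 1 to 3 were at 9.08, 8.54 and 8.62, adult samples 1 to 5 at 8.40, 8.37, 7.98, 7.89 and 8.31, hGFAP tumours at 8.02 to 8.36 (median 8.27) and Oligo1 tumours at 7.84 to 8.72 (median 8.05). Oligo1 tumours 5 and 6, at 8.55 and 8.72, reached into the developing range, which no other tumour did. Lss was lower than in developing cerebellum by 0.50 on the log2 scale in hGFAP tumours (SE 0.16, adjusted p = 0.0228) and by 0.59 in Oligo1 tumours (SE 0.16, adjusted p = 0.00511). Both calls rested on the embryonic day 15 array: without it the differences were -0.34 (adjusted p = 0.228) and -0.43 (adjusted p = 0.0729), and that between developing and adult cerebellum went from 0.56 (adjusted p = 0.0122) to 0.39 (adjusted p = 0.111). Against adult cerebellum the differences of Lss were 0.06 in hGFAP tumours (95% interval -0.23 to 0.34) and -0.03 in Oligo1 tumours (-0.32 to 0.25), and neither was called.

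Cyp51 encodes lanosterol 14-alpha-demethylase, the first enzyme to trim lanosterol. It read 9.42, 9.17 and 8.96 in developing samples 1 to 3 and 7.75, 8.11, 7.58, 7.72 and 8.11 in adult samples 1 to 5. hGFAP tumours ranged from 6.73 to 8.57 (median 8.10), with hGFAP tumour 5 at 6.73 and the next lowest at 7.90, and Oligo1 tumours from 7.68 to 8.77 (median 8.40). Cyp51 thus spread widely within both tumour groups, yet no tumour reached the lowest developing array. It was 2.31-fold lower than in developing cerebellum in hGFAP tumours (-1.21, SE 0.27, adjusted p = 0.00173), and the difference was -1.03 without hGFAP tumour 5 (adjusted p = 0.000348). In Oligo1 tumours it was 1.84-fold lower (-0.88, SE 0.27, adjusted p = 0.0112), a call lost without the embryonic day 15 array (-0.76, adjusted p = 0.0707). The difference of 0.45 between Oligo1 tumours and adult cerebellum was not called (adjusted p = 0.083), and was 0.54 and called without Oligo1 tumour 4, the lowest of its group (adjusted p = 0.0382).

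Dhcr7 encodes 7-dehydrocholesterol reductase, which makes cholesterol in the last step of 1 branch of the pathway and whose loss causes Smith-Lemli-Opitz syndrome in humans. It was at 9.17 at embryonic day 15, 9.46 at embryonic day 18 and 9.51 at postnatal day 0, with 1 array at each age and no test of age. Adult samples 1 to 5 were at 8.42, 8.60, 8.40, 8.78 and 8.65, so that here the C57BL/6 arrays, samples 3 and 4, were the lowest and the highest of the group. Tumours lay close together, at 8.16 to 8.67 in hGFAP (median 8.40) and 8.30 to 8.81 in Oligo1 tumours (median 8.47). Dhcr7 was 1.96-fold lower than in developing cerebellum in hGFAP tumours (-0.97, SE 0.11, adjusted p = 1.03e-06) and 1.84-fold lower in Oligo1 tumours (-0.88, SE 0.11, adjusted p = 2.86e-06). Against adult cerebellum it differed by -0.16 (95% interval -0.36 to 0.03) and -0.07 (-0.27 to 0.13), neither of which was called.

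Counted over the 8 enzymes, hGFAP tumours had 8 lower and 0 higher than developing cerebellum, with adjusted p under 0.05 in the limma fit over all genes, where 13.3% of all genes tested were lower and 15.0% higher. All 8 ranges lay below the developing ones, which held for 11.4% of all genes. Oligo1 tumours had 7 lower and 0 higher, against 19.9% lower and 27.5% higher of all genes, and 7 of the 8 ranges lay below the developing ones, against 16.8%. The median difference of the 8 enzymes was -0.95 in hGFAP and -0.87 in Oligo1 tumours, and the median of all genes tested was 0.06 and 0.12. These comparisons share the 3 developing arrays, so they are not independent of each other. Within tumours whose array names are of the short style (tumours 1 to 4 of each group), 8 and 8 enzymes were called lower, where 16.2% and 24.5% of all genes were. Within those of the long style (tumours 5 to 8) 7 and 6 were, where 10.4% and 14.1% of all genes were.

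Against adult cerebellum, 1 enzyme (Fdps) was higher in hGFAP tumours and 0 were lower, where 24.2% of all genes were higher and 29.8% lower. In Oligo1 tumours 2 were higher (Fdps and Sqle) and 0 lower, where 35.8% of all genes were higher and 34.5% lower, so that the share of enzymes called was below that of all genes. Sqle was the 1 enzyme whose Oligo1 tumours all lay above the adult arrays, which was so for 26.1% of all genes. The medians were 0.09 and 0.08, against -0.02 and 0.04 for all genes. Between developing and adult cerebellum, 7 enzymes were higher and 0 lower, where 20.2% of all genes were higher and 25.5% lower, and all 8 developing ranges lay above the adult ones, against 26.1% of all genes. Their median difference was 1.08, and that of all genes -0.05.

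The 2 tumour groups were not told apart by any of the 8 enzymes. In limma 0 of 8 were called, against 18.9% of all genes in either direction, 10.4% higher and 8.54% lower in hGFAP tumours. The unadjusted p was at least 0.116, that of Cyp51, so that 0 of 8 passed at an unadjusted 0.05 as well. The differences of hGFAP from Oligo1 tumours ran from -0.33 for Cyp51 (95% interval -0.74 to 0.09) to 0.09 for Fdft1 (-0.18 to 0.35) and Lss (-0.16 to 0.34). A p that misses the threshold does not show that the groups are alike.

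**Figure D2:**
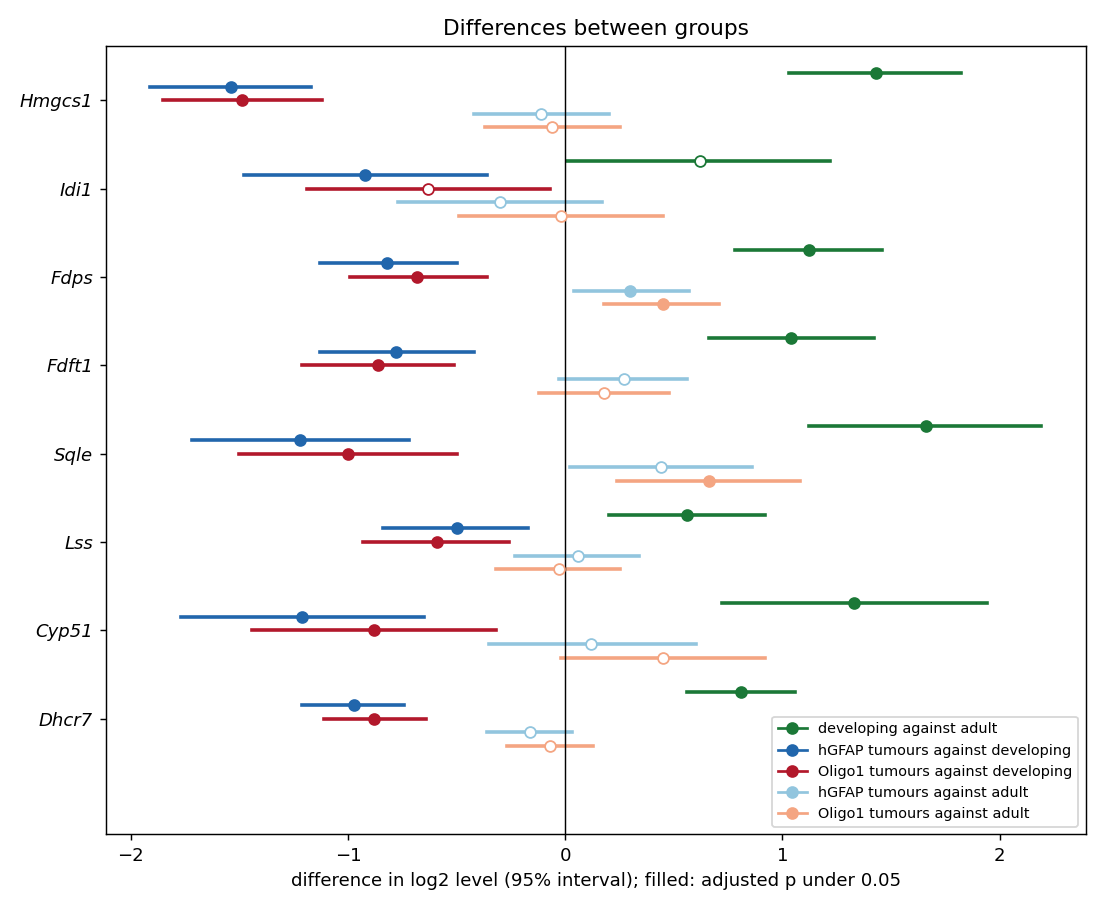
Difference in log2 level (x axis) of each enzyme (y axis) between the groups named in the key, with 95% intervals; filled points had a limma adjusted p under 0.05. Developing cerebellum minus adult lies to the right of 0 for every enzyme and tumours minus developing to the left, while tumours minus adult lie around 0, from -0.30 for Idi1 in hGFAP tumours to 0.66 for Sqle in Oligo1 tumours.

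The single probe sets were tested as well. The 8 enzymes had 93 probe sets, of which 82 passed the same brightness filter. Against developing cerebellum, 59 of the 82 were lower and 0 higher in hGFAP tumours, where 10.3% of the 136806 probe sets tested were lower, and 56 were lower and 0 higher in Oligo1 tumours, where 17.3% were. Between developing and adult cerebellum, 57 were higher and 0 lower, against 15.7% of all probe sets. Between the tumour groups 0 of the 82 were called, where 5.49% of all probe sets were called in either direction, a share so low that 0 says little about the enzymes. Probe sets of 1 gene read the same RNA and are not replicates. The genes differed in how evenly their probe sets moved: in hGFAP tumours all 12 tested probe sets of Hmgcs1 were called lower than in developing cerebellum (from -1.80 to -0.98), all 8 of Dhcr7 and all 4 of Fdps, 12 of 13 of Cyp51 and 11 of 12 of Sqle. For Lss, 2 of 20 were called, with differences from -0.87 to 0.03, and for Idi1 6 of 8. In Oligo1 tumours the counts were 11 of 20 for Lss, with differences from -1.02 to 0.04, and 3 of 8 for Idi1, beside 11 of 12 for Hmgcs1, 7 of 8 for Dhcr7 and 8 of 12 for Sqle. A further 2 probe sets name one of the 8 genes beside other genes, and they were left out.

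The strain of the normal arrays moved with several enzymes. In 7 of the 8, all but Dhcr7, both C57BL/6 adult arrays lay below the 3 mixed-strain adult arrays, of which samples 1 and 2 were also younger, so strain and age cannot be told apart there. Against the C57BL/6 adult arrays alone, the C57BL/6 developing arrays still had 7 enzymes called higher, from 0.79 for Dhcr7 to 1.99 for Sqle, where 14.4% of all genes were higher. Against the mixed-strain adult arrays alone 6 were called higher, where 16.7% of all genes were, and Lss lost its call (0.39, adjusted p = 0.103). With strain as a covariate, estimated from the adult arrays, 7 enzymes were lower than in developing cerebellum in hGFAP tumours and 6 in Oligo1 tumours, where 4.70% and 8.59% of all genes were lower, fewer than the 13.3% and 19.9% without the covariate. The enzymes that lost their call were Idi1 in hGFAP tumours (-1.11, adjusted p = 0.168) and Cyp51 in Oligo1 tumours (-1.22, adjusted p = 0.0796), in neither case with a smaller difference. The same covariate brought Hmgcs1 in hGFAP tumours to -0.37 against adult cerebellum (adjusted p = 0.0451).

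The enzymes were then set beside the rest of the pathway, by lists that name 13 further synthesis enzymes, 9 regulators of SREBP, 11 genes of uptake and intracellular transport and 11 genes of efflux, sterol sensing and turnover. Of the 13 further enzymes, 10 had a named probe set and 9 were tested. Against developing cerebellum 4 of the 9 were lower and 1 was higher in hGFAP tumours, where 13.3% of all genes were lower and 15.0% higher. In Oligo1 tumours 5 were lower and 2 higher, where 19.9% of all genes were lower and 27.5% higher. The medians of the 9 were -0.33 and -0.53. Those lower in both were Mvk, mevalonate kinase (-0.64 and -0.74), and 3 enzymes that act on sterols, namely Msmo1, the C4-methylsterol oxidase (-1.11 and -1.05), Nsdhl, which removes C4 carboxyl groups (-1.01 and -1.07), and Tm7sf2, a C14 reductase (-0.87 and -1.03). Sc5d, the lathosterol oxidase, was lower in Oligo1 tumours (-0.53, adjusted p = 0.00322) and at -0.33 in hGFAP tumours (adjusted p = 0.0772).

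Not all enzymes of the pathway followed. Ebp, the emopamil-binding sterol isomerase, was higher than in developing cerebellum in both tumour groups (0.81, adjusted p = 9.81e-05, and 0.66, adjusted p = 0.000529), and was lower than in adult cerebellum in both (-0.42 and -0.57). Lbr, the lamin B receptor, which is also a C14 sterol reductase, was higher than in developing cerebellum in Oligo1 tumours (0.94, adjusted p = 0.0274) and higher than in adult cerebellum in both (1.24 and 1.76). Hsd17b7 and Mvd were not called different from developing cerebellum in either tumour group. Against adult cerebellum 3 of the 9 further enzymes were lower and 2 higher in hGFAP tumours, with differences from -0.73 to 1.24. There 29.8% of all genes were lower and 24.2% higher. In Oligo1 tumours 4 were lower and 2 higher, from -0.94 to 1.76, where 34.5% of all genes were lower and 35.8% higher. Msmo1 was among those lower in both (-0.54 and -0.48), without the largest fall in either. None of the 8 enzymes was lower than in adult cerebellum in the same fit.

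**Figure D3:**
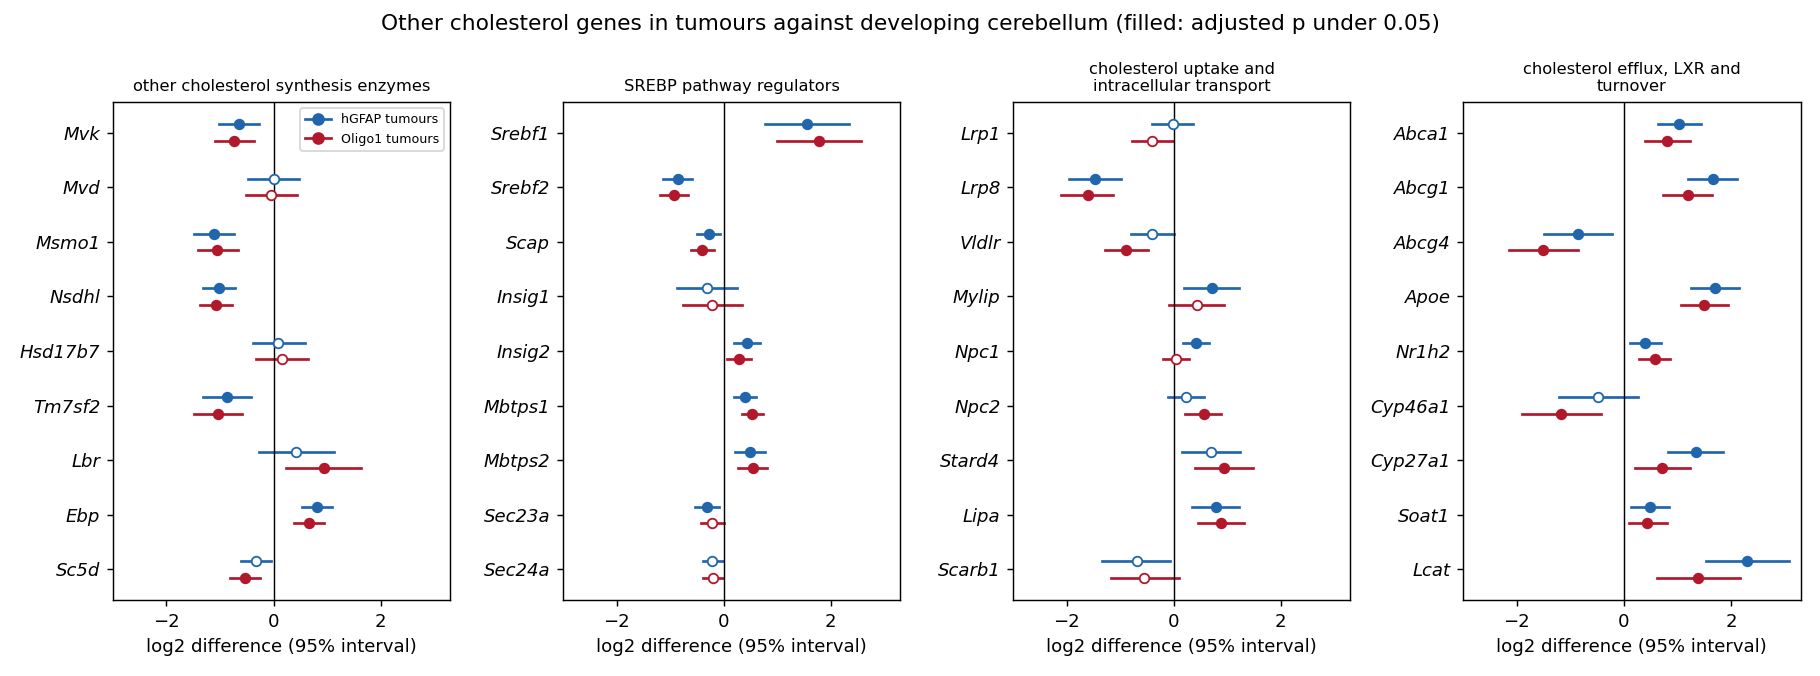
Log2 difference from developing cerebellum (x axis, 95% intervals) of the tested genes of the other cholesterol lists (y axis) in hGFAP and Oligo1 tumours; filled points had a limma adjusted p under 0.05. Msmo1, Nsdhl, Srebf2 and Lrp8 lie to the left of 0 in both groups, and Srebf1, Apoe, Abca1 and Abcg1 to the right.

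Among the 9 SREBP regulators, all tested, 3 were lower and 4 higher than in developing cerebellum in hGFAP tumours. There 13.3% of all genes were lower and 15.0% higher. In Oligo1 tumours 2 regulators were lower, near the 19.9% of all genes, and 4 were higher, where 27.5% of all genes were. Srebf2, which encodes SREBP-2, was lower by 0.86 on the log2 scale in hGFAP tumours (SE 0.13, adjusted p = 2.53e-05) and by 0.92 in Oligo1 tumours (SE 0.13, adjusted p = 6.99e-06), and its arrays did not overlap with the developing ones. Srebf1, which encodes the SREBP-1 factors that act mainly on fatty acid genes, went the other way, higher by 1.56 (adjusted p = 0.00321) and 1.78 (adjusted p = 0.000654), and higher than in adult cerebellum by 1.81 and 2.04. The proteases that release SREBP from the membrane, Mbtps1 (0.40 and 0.53) and Mbtps2 (0.50 and 0.54), were higher in both. Insig2, which retains SREBP in the endoplasmic reticulum, was higher than in developing cerebellum (0.44 and 0.29), while Scap, the escort of SREBP, was lower (-0.28 and -0.40). Insig1, itself a target of SREBP-2, was not called in any of the 6 comparisons, with differences from -0.31 to 0.05.

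Genes that move cholesterol in and out of cells differed in both directions. Of 9 tested uptake and transport genes, 3 were higher and 1 lower than in developing cerebellum in hGFAP tumours, and 3 were higher and 2 lower in Oligo1 tumours. Among all genes tested, 15.0% were higher and 13.3% lower in hGFAP tumours, and 27.5% and 19.9% in Oligo1 tumours. The counts of uptake and transport genes in Oligo1 tumours were thus near the shares of all genes. Lrp8, an apolipoprotein E and reelin receptor, was lower in both (-1.47, adjusted p = 5.29e-05, and -1.61, adjusted p = 1.18e-05), and Lipa, the lysosomal lipase that frees cholesterol from its esters, was higher (0.79 and 0.88). Of 9 tested genes of efflux, sterol sensing and turnover, 7 were higher in both tumour groups, and 1 and 2 were lower. Differences of the 9 ran from -0.85 to 2.30 in hGFAP tumours and from -1.5 to 1.5 in Oligo1 tumours. Those named next all had a rise, and the genes called lower are not named. Apoe, the main lipoprotein component of the brain, was higher by 1.71 and 1.5, the exporters Abca1 by 1.04 and 0.81 and Abcg1 by 1.66 and 1.20, and Cyp27a1, the sterol 27-hydroxylase, by 1.34 and 0.72. Against adult cerebellum Apoe was not called (0.33 and 0.13), Abca1 was higher (1.39 and 1.17) and Cyp27a1 was lower (-0.90 and -1.52). Apoe, Abca1 and Abcg1 are also made by astrocytes and macrophages. Macrophage markers were higher than in developing cerebellum in both tumour groups, 11 of 11 in hGFAP and 10 of 11 in Oligo1 tumours. They were higher than in adult cerebellum in the same numbers, where 24.2% and 35.8% of all genes were higher. Of 11 astrocyte and Bergmann glia markers, 4 were higher and 1 lower than in developing cerebellum in hGFAP tumours. In Oligo1 tumours 3 were higher and 3 lower. The part of these cell types in the differences was not tested.

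Pathways that share precursors or regulators were compared with developing cerebellum as well. There 28.3% of all genes tested were called in either direction in hGFAP tumours and 47.5% in Oligo1 tumours. Of 10 fatty acid synthesis genes, 0 were called in hGFAP tumours and 2 were lower in Oligo1 tumours, Fads1 (-0.65) and Scd2 (-0.43), with medians of -0.05 and -0.19. Fasn, the fatty acid synthase, was at -0.17 and -0.23. Of 11 genes of the isoprenoid branch, which uses the product of Fdps for prenylation, dolichol and ubiquinone, 1 was lower in hGFAP tumours (Rabggta, -0.36), and 2 were higher and 2 lower in Oligo1 tumours. Whether the cholesterol enzymes differ from these lists was not tested.

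Across the 24 arrays the 8 enzymes varied together, most closely Cyp51, whose Pearson correlation with the mean of the other 7 enzymes was 0.93, and Sqle, at 0.91. Fdft1 was at 0.89, Fdps at 0.88, Hmgcs1 at 0.87, Dhcr7 at 0.80, Idi1 at 0.77 and Lss at 0.67. After each group's mean was removed, the correlations were 0.92 for Cyp51 and 0.90 for Sqle, and 0.43 for Dhcr7 and 0.40 for Lss. These are descriptions over 24 arrays that share groups, normalization and, within groups, the low hGFAP tumour 5. Among all other genes tested, the gene most like the mean of the 8 enzymes was Nsdhl, at 0.92 over the 24 arrays and 0.84 within groups, followed by Stox2 (0.92), Eid1 (0.90), Mmd (0.89) and then Nr2f2, Nid1, Aff2, Sh3rf1, Fam171a1 and Tma7 (0.88 each). Other enzymes of the pathway ranked lower, Mvk at 149 (0.78) and Msmo1 at 298 (0.72) of 10975 genes, and Ebp ran against the 8 enzymes (-0.67).

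Cell type and proliferation markers were measured in the same arrays. Against developing cerebellum, 1 of 7 proliferation markers was higher in hGFAP tumours, near the 15.0% of all genes. In Oligo1 tumours 3 of 7 were higher, where 27.5% of all genes were. In either tumour group 0 were lower, where 13.3% and 19.9% of all genes were. Their mean level was 8.94 to 10.33 in developing arrays, 7.04 to 11.30 in hGFAP and 10.93 to 11.56 in Oligo1 tumours, and 5.99 to 6.44 in adult arrays. Enzyme means overlapped between adult cerebellum and Oligo1 tumours, which also differ in genotype and cell markers. The part of proliferation in the level of the enzymes was not tested. Granule neuron precursor markers (8 genes) had means of 9.27 to 10.19 in developing arrays, a median of 10.70 in hGFAP tumours with hGFAP tumour 5 lowest at 7.70, 10.37 to 11.08 in Oligo1 tumours and 6.35 to 6.70 in adult arrays.

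Myelinating oligodendrocytes are among the cells that make the most cholesterol. The mean of 10 myelin markers was 6.10 to 6.67 in developing arrays and 9.13 to 9.82 in adult arrays. It was 7.08 to 9.67 in hGFAP and 6.10 to 8.07 in Oligo1 tumours. Between the tumour groups, 8 of 10 markers were higher in hGFAP tumours, where 10.4% of all genes were. Astrocyte and Bergmann glia markers (11 genes) were at 8.66 to 9.88 in developing arrays, 10.50 to 10.88 in adult arrays, 9.81 to 10.83 in hGFAP and 8.47 to 10.13 in Oligo1 tumours. Microglia and macrophage markers (11 genes) were at 6.61 to 7.24 in developing and 6.92 to 7.55 in adult arrays, and at 7.23 to 9.44 in hGFAP and 8.71 to 9.84 in Oligo1 tumours. Endothelial and pericyte markers (9 genes) were at 8.36 to 9.0 in developing arrays, 8.01 to 8.52 in adult arrays, 7.42 to 8.10 in hGFAP and 7.58 to 8.30 in Oligo1 tumours. Of these 9, 6 and 5 were lower than in developing cerebellum, where 13.3% and 19.9% of all genes were. Higher were 1 and 0, where 15.0% and 27.5% of all genes were. Mature granule neuron markers (9 genes) were at 7.09 to 7.77 in developing and 11.27 to 11.57 in adult arrays, 7.71 to 11.16 in hGFAP and 6.58 to 9.83 in Oligo1 tumours. Purkinje cell markers (8 genes) were at 7.29 to 8.38 in developing and 11.02 to 11.30 in adult arrays, 6.94 to 10.57 in hGFAP and 5.98 to 9.60 in Oligo1 tumours. The part of any of these cell types in the level of the enzymes was not tested.

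**Figure D4:**
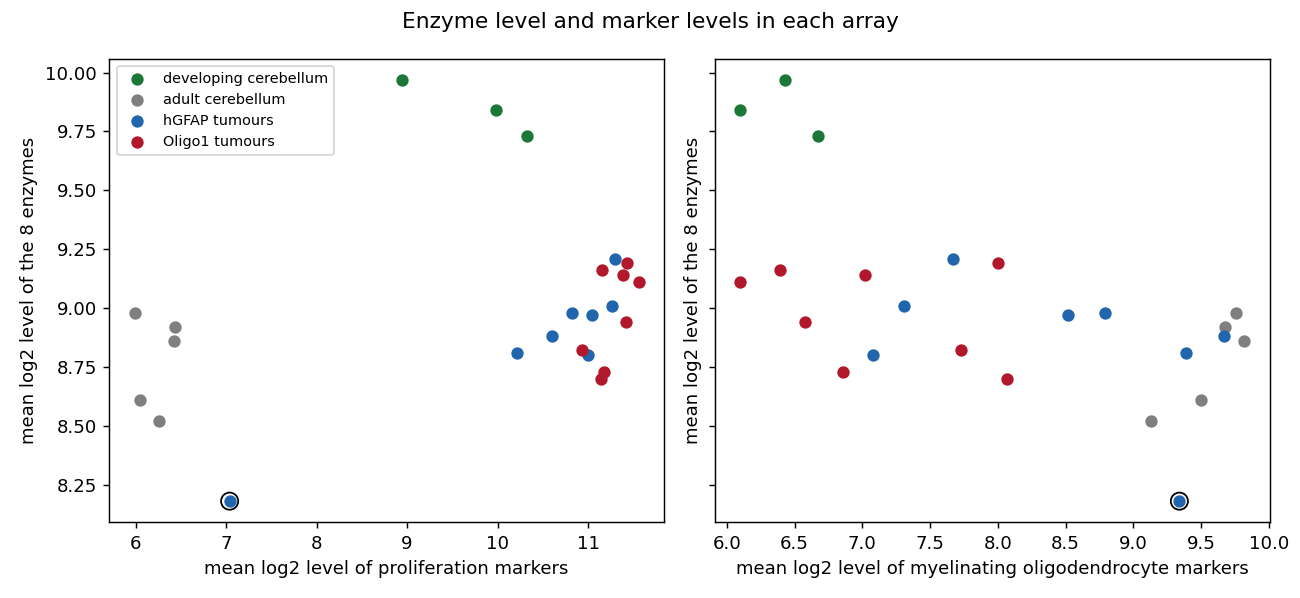
Mean log2 level of the 8 enzymes (y axis, not starting at 0) in each of the 24 arrays against the mean log2 level of 7 proliferation markers (left) and 10 myelinating oligodendrocyte markers (right), coloured by group, with hGFAP tumour 5 circled. The developing arrays stand at 9.73 to 9.97 on the enzyme axis, apart from all others, at proliferation levels below those of all Oligo1 tumours.

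hGFAP tumour 5 was the lowest hGFAP tumour for 7 of the 8 enzymes, all but Lss, and the lowest of all 24 arrays for 5. Without it the group means rose to 9.18 for Idi1 (from 8.98), 8.88 for Sqle (from 8.72) and 8.15 for Cyp51 (from 7.98), and the SDs fell from 0.60 to 0.26, from 0.51 to 0.24 and from 0.55 to 0.23. All 8 enzymes stayed lower than in developing cerebellum without it, by 0.50 on the log2 scale for Lss to 1.5 for Hmgcs1. Of all genes, 15.4% were then lower than in developing cerebellum. Against adult cerebellum 3 enzymes were then higher, Fdps, Fdft1 and Sqle, where 32.8% of all genes were higher, so that the enzymes' share was near that of all genes.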

How the data were processed

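The authors deposited log2 values, 1 column per array, made with RMA (background correction, quantile normalization and summary per probe set); the submitters' processing notes list oligo 1.14 and R 2.15. The genome build behind the probe sets is not given in the sources used here. Of 241576 probe sets, 213361 had 1 gene symbol in the platform annotation, 5107 had several and 23108 had none; only the first were used. Median polish over the probe sets of each gene gave 20893 genes; 20850 of them had a current symbol in the RefSeq table. Genes with at least 3 arrays above the table median of 7.61 were kept (10983). RMA makes arrays share 1 distribution, so a change of all genes together would not show.

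Groups were compared with limma 3.58.1 (lmFit and eBayes, R 4.3.3) over all 24 arrays and 4 groups, with Benjamini-Hochberg adjustment over all genes kept and a threshold of 0.05. Intervals are 95%. Differences are group means on the log2 scale. The deposited values carry no read depth; precision is limited by how many arrays each group has. For the normal samples nothing in the labels says that they came from separate animals, so the spread between them may be technical. The 8 enzymes, the pathway and marker lists (152 entries, 144 with a named probe set) and the tests were chosen with earlier results of these data known. All 8 enzymes are named throughout. Of other lists, some called genes and some that were not called are named, and these do not always include the largest called differences. The 10 genes most alike were taken by Pearson correlation with the mean enzyme profile. The steps were tested on simulated data. Alternatives covered the probe-set summary, filter, normalization, samples fitted, array weights, variance model, strain, age, array-name style, pairing by replicate number and leaving out single arrays. Those without hGFAP tumour 5 and Oligo1 tumour 6 together, with C57BL/6 adult arrays only, and with the strain covariate for tumours against developing cerebellum were added after seeing the data.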

Additional observations from a re-analysis of the deposited data

Results flagged for a closer look

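In 4 enzymes hGFAP tumour 5 lay farther below its group than Dixon's 95% limit for a group of 8 allows. It was at 7.63 for Idi1, where the next lowest hGFAP tumour was at 8.81, at 8.39 for Fdps (next 8.95), at 7.59 for Sqle (next 8.56) and at 6.73 for Cyp51 (next 7.90), on the log2 scale. In the same array the mean of 7 proliferation markers was 7.04, against a median of 10.91 in hGFAP tumours, and Gnas was the highest of all tumours at 9.33. The part of cell makeup in these values was not tested. For Idi1, adult cerebellum 5, the array recorded only as adult, was at 9.65 with the next highest adult array at 9.24. These are 5 of 24 groups of values examined, and groups of 3 arrays were not examined. Chance flags about 1 in 20 independent groups. The 8 enzymes were read on the same arrays and varied together, and 4 of the 5 flags are hGFAP tumour 5. The 24 groups are therefore not independent, and the count cannot be set against that rate.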

How the results depend on the processing

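Of 1334 values of single enzymes under the alternatives, 1248 kept their side of the threshold, 54 lost their call and 32 gained one. Values called in the main fit or in the alternative reversed their direction in 0 cases. Values called in neither could change sign and were counted as kept. Hmgcs1 in hGFAP tumours against adult cerebellum went from -0.11 to 0.28 with C57BL/6 adult arrays. Counts of enzymes called moved as follows. In hGFAP tumours against adult cerebellum (1 enzyme) there were 0 with bright probe sets only, with no filter, with only the groups compared, with a 2-fold minimum, with the long array names and with mixed-strain adult arrays, and 3 after quantile normalization again, median centring, array weights, with the short names, without hGFAP tumour 5 and Oligo1 tumour 6, and with C57BL/6 adult arrays. In Oligo1 tumours (2 enzymes) there were 0 with a 2-fold minimum, the strain covariate or mixed-strain adult arrays, and 1 with the long names. Against developing cerebellum, a 2-fold minimum gave 3 enzymes in hGFAP tumours (from 8) and 1 in Oligo1 tumours (from 7). The stricter filter left 3 enzymes untested (Lss, Cyp51 and Dhcr7); of the other 5, those called were 5 in hGFAP and 4 in Oligo1 tumours, and 4 between developing and adult cerebellum (from 7), and no tested enzyme lost its call. Between the tumour groups it was 0 in every alternative run.

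Counts over all genes moved by over 1.5 times as follows. For hGFAP tumours against adult cerebellum, 5936 genes became 3398 under the stricter filter, 1943 with a 2-fold minimum and 3794 with C57BL/6 adult arrays. For Oligo1 tumours, 7713 became 4238 and 3224 under the first 2 of these. For hGFAP tumours against developing cerebellum, 3108 became 1582 under the stricter filter, 6751 with array weights, 1171 with a 2-fold minimum, 4868 with the short names, 4936 without hGFAP tumour 5 and Oligo1 tumour 6, 776 with the strain covariate and 1957 without embryonic day 15. For Oligo1 tumours, 5213 became 2682 under the stricter filter, 7889 with weights, 1934 with a 2-fold minimum, 3266 with the long names and 1450 with the strain covariate. Between developing and adult cerebellum, 5014 became 2792 under the stricter filter, 7641 with weights and 2199 with a 2-fold minimum. Between the tumour groups, 2076 became 222 with only the groups compared, 4335 with weights, 266 with a 2-fold minimum, 7 with the long names, 1377 without hGFAP tumour 5 and Oligo1 tumour 6, and 886 with the naming style as a block. The cause of these moves was not tested.

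With 1 array left out, enzymes called ranged from 0 to 3 (hGFAP) and 2 to 3 (Oligo1) against adult cerebellum, 7 to 8 and 5 to 8 against developing cerebellum, 0 to 0 between the tumour groups and 6 to 7 between the normal stages. Genes called ranged from 5429 to 7024, 7369 to 7899, 1957 to 4477, 3668 to 5363, 521 to 3174 and 4043 to 4805 in the same order. Tumours of the 2 groups share replicate numbers. Deviations of same-numbered tumours from their group means correlated at -0.50 to 0.59, over 0.1 in 3 of 8 pairs, and 1 tumour matched its own number best. These correlations cannot decide whether the numbers mark pairs, because deviations within a group sum to 0 and single outlying arrays weigh on them. With the replicate number as a block, 181 genes and 0 enzymes were called between the tumour groups.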
